A study of Oryctolagus cuniculus with 6 samples.

Results

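ACTA2, TAGLN, POSTN and FN1 are 4 genes of the contractile and adhesive programme of myofibroblasts, and they were followed here in tissue formed in rabbit skull defects on days 3, 5 and 7. Their probes were found by symbol, gene number or product name in the array's annotation columns. That gave 18 probes of the 43603 on the array: 1 for ACTA2, 2 for TAGLN, 4 for POSTN and 11 for FN1. Each gene is represented by its brightest probe over the 6 arrays, as 4 of the 20215 features tested, and the other 14 probes are described beside it.

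Myofibroblasts are fibroblasts that assemble contractile stress fibres and pull a healing wound together. ACTA2 encodes the smooth muscle actin of those fibres, and TAGLN encodes transgelin, an actin-binding protein that decorates them. POSTN encodes periostin, a secreted matricellular protein of periosteum and healing connective tissue that binds integrins and collagen, and FN1 encodes fibronectin, the matrix glycoprotein on which cells anchor through integrins. ACTA2 and TAGLN are also made by vascular smooth muscle, and FN1 by macrophages, so none of these genes marks the myofibroblast alone.

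The animals were male New Zealand White rabbits, 4 months old, 24 in the study. Each received circular parietal defects 5 mm across; those on the right were packed with 0.2 g of HPD, named in the series title as human particulated dentin, and the remaining ones were left unfilled. Control and HPD defects therefore lay in the same skulls, and the labels name no genetic change and no further agent in any group. Single-dye Agilent arrays measured RNA of the newly formed tissue, with 1 array for each of the 6 combinations of day and treatment. How many animals or defects stand behind an array is not given in the sources used here. The control of each day is an empty defect, so the comparison does not separate dentin from a filled space of any kind.

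Values are log2 of the processed spot intensity over the 75th percentile of its array, so that 0 is the level of that percentile and a step of 1 is a 2-fold difference. Between 78.1% and 86.4% of spots were well above background and 0 were saturated; the brightest probes of the 4 members were well above background on 6 of 6 arrays. Both day 3 arrays lay on slide 1 and the other 4 on slide 2, so day 3 against a later day cannot be told apart from the slide, whereas HPD against control was always within a slide. With 1 array per group there is no test within a day. Tests came from limma, fitted over all 6 arrays with day and treatment as terms, and their p-values rest on the spread among these arrays alone, in which variation of the HPD effect from day to day is contained. In bulk tissue, fewer cells of a type and less RNA per cell cannot be told apart.

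The probes that stand for the 3 genes with probes of 1 pattern are printed first, since each number below is the brightness of one such 60-base stretch. None of their bases are set apart by capitals.
ACTA2: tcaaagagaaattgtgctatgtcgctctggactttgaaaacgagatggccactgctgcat
TAGLN: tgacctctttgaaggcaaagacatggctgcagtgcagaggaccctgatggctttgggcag
POSTN: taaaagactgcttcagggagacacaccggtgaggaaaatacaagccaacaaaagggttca
The ACTA2 probe matches positions 698 to 757 of transcript NM_001101682 and lies within a single exon at chr18:36857883-36857942 on the minus strand of oryCun2. The TAGLN probe matches positions 389 to 448 of ENSOCUT00000011967 and crosses an intron of 232 bases at chr1:99217951-99218242, minus strand. The POSTN probe matches positions 2411 to 2470 of ENSOCUT00000011483, for which no genome position is used here. Each of the 18 member probes reads through without a stop codon in at least 1 frame. Actins share much of their coding sequence; the longest exact run that the ACTA2 probe shares with a probe of any other gene on the array is 15 bases, and hybridisation of other actin transcripts to it was not tested. For TAGLN that run is 15 bases and for the POSTN probe 13 bases.

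ACTA2 was highest in the empty defect on day 7 and lowest in the HPD-filled defect on day 3. On day 3 its level was -0.03 in the control and -1.18 with HPD. On day 5 it was 0.40 in the control and 0.86 with HPD, and on day 7 it was 2.37 in the control and 1.09 with HPD. In processed intensity these 6 arrays ran from 202 to 1593. Both day 7 arrays lay above all 4 earlier ones, an order that 11.7% of all features showed.

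**Figure D1:**
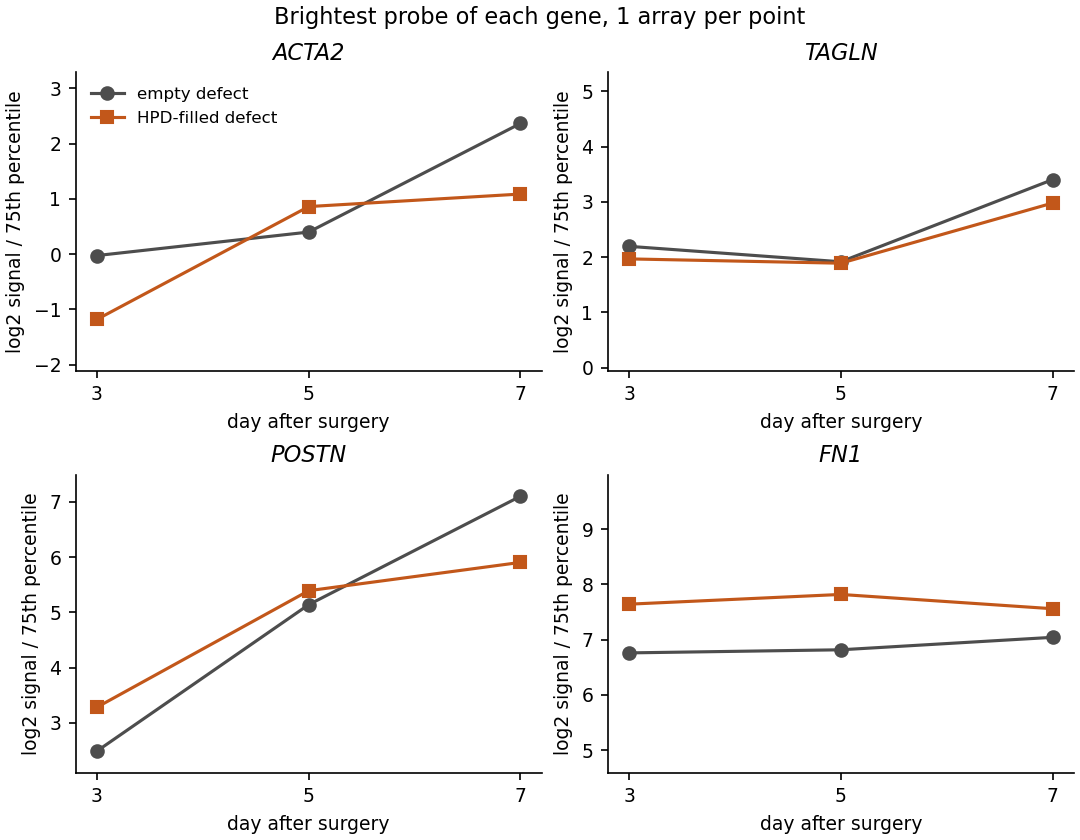
Log2 signal over the array's 75th percentile (vertical axes, all spanning the same number of log2 units) on days 3, 5 and 7 for the brightest probe of ACTA2, TAGLN, POSTN and FN1. Grey circles are empty control defects and orange squares HPD-filled defects, 1 array per point with no error bar; the control points of ACTA2 and POSTN end highest on day 7 at 2.37 and 7.10, and the FN1 points with HPD stay above the control points on each day.

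The ACTA2 control array was 3.91-fold higher on day 7 than on day 5, while the HPD array was 1.17-fold higher. Between day 3 and day 5 the steps were the other way round, 1.34-fold in the control and 4.12-fold with HPD. Over the whole interval the control step was 5.24-fold and the HPD step 4.82-fold. Averaged over both treatments, ACTA2 was higher by 2.33 ± 0.49 (SE, 6 arrays) on day 7 than on day 3, which did not pass the threshold of 0.05 in limma (adjusted p = 0.14). In the order of levels, control day 3, control day 5, HPD day 5 and HPD day 7 follow each other by less than the residual spread of 0.49, so that only the lowest and the highest array stand farther from their neighbour than that.

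HPD against control turned sign for ACTA2 from day to day. With HPD it was 2.23-fold lower on day 3, 1.38-fold higher on day 5 and 2.42-fold lower on day 7. At least 2-fold lower levels were seen for 1 of the 4 members on day 3, where 2.9% of features reached it, for 0 of 4 on day 5, where 1.68% did, and for 2 of 4 on day 7, ACTA2 and POSTN, where 0.846% did. At least 2-fold higher levels were seen for 1 of 4 on day 5, FN1, against 4.89% of features, and for 0 of 4 on days 3 and 7, against 3.57% and 1.62%. Several of these folds lie near 2. FN1 on day 3 passed 2-fold with quantile normalization (1.23 on the log2 scale) and normexp background (1.20), and FN1 on day 5 did not with median scaling (0.88) or the mean of probes (0.93). ACTA2 on day 3 did not with normexp background (-0.86), while ACTA2 and POSTN on day 7 did under each of these settings. The mean HPD effect on ACTA2 was -0.66 ± 0.40 (SE, 6 arrays; limma, adjusted p = 0.583). It was -1.22 without day 5, -0.41 without day 3 and -0.35 without day 7, with adjusted p-values in limma from 0.626 to 0.907, so its size rests on which days are averaged.

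Markers of vascular smooth muscle and pericytes, the other cells of such tissue that make ACTA2, were measured for 8 of 11 genes. Their summed level, as a multiple of the 75th percentile, was 8.44 to 9.22 on the day 7 arrays and 9.86 to 12.2 on the day 3 arrays. ABCC9, the brightest of the 8 on each array, weighs most in that sum. Its log2 levels were 2.86 and 3.20 on day 3 and 2.50 and 2.63 on day 7, for control and HPD in turn. Of these markers, 4 of 8, or 5 of 8 under median scaling, were higher on day 7 than on day 3. Their median estimate for that step was 0.25 against -0.01 over all features, or -0.003 with normexp background. MYH11, which encodes smooth muscle myosin heavy chain and defines mature smooth muscle, was well above background on 3 of 6 arrays. RGS5, a pericyte regulator of G protein signalling, was higher by 1.99 ± 0.49 on day 7 than on day 3 (SE, 6 arrays; limma, adjusted p = 0.153). The part of these cells in the ACTA2 levels was not tested.

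The profile most like that of ACTA2 over the 6 arrays belonged to ACTC1, which encodes cardiac alpha actin, with a root mean square difference of 0.240 after each gene was centred on its own mean. It was followed by IGFBP6 at 0.391, RGS5 at 0.395, SFRP2 at 0.436 and CSRP2 at 0.441, out of 8650 named genes compared. ACTC1 stood at 0.88 and 0.14 on day 3, at 1.11 and 1.88 on day 5 and at 3.26 and 2.47 on day 7, for control and HPD in turn. Like ACTA2 it was lower with HPD on days 3 and 7 and higher on day 5. These likenesses are over 6 arrays that share days and slides and are descriptions.

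**Figure D2:**
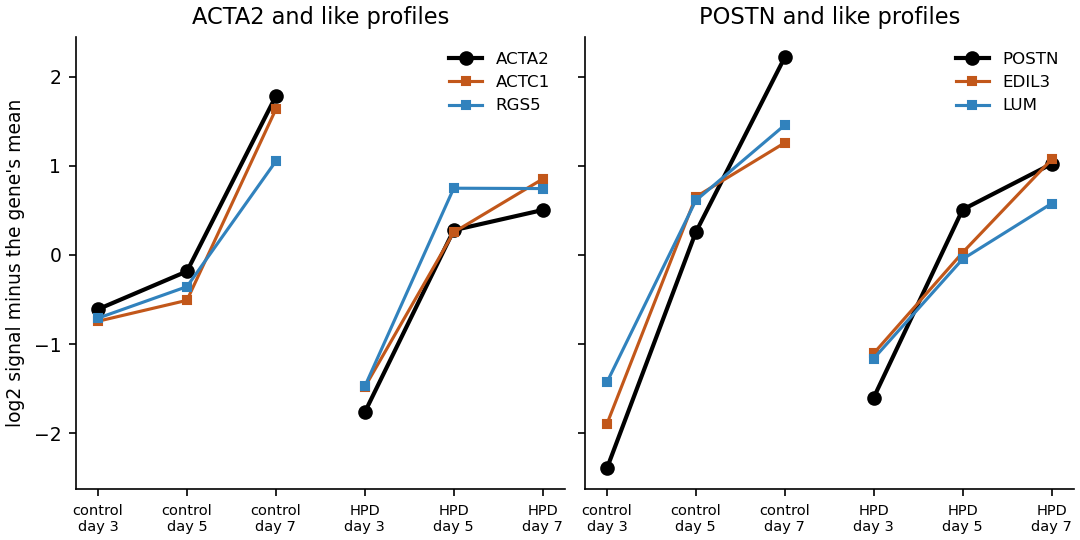
Log2 signal minus the gene's own mean over the 6 arrays (vertical axis) for ACTA2 with ACTC1 and RGS5 (left) and POSTN with EDIL3 and LUM (right), 1 array per point and no error bar. Control arrays stand to the left and HPD arrays to the right in each panel; ACTA2 and ACTC1 are both highest in the control on day 7, at 2.37 and 3.26 before centring.

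TAGLN was higher on both day 7 arrays than on any earlier one. Its level was 2.19 in the control and 1.97 with HPD on day 3, then 1.91 and 1.89 on day 5. On day 7 it was 3.40 in the control and 2.98 with HPD. The 4 earlier arrays span 1.89 to 2.19, and both day 7 arrays lie above them, an order that 11.7% of all features showed.

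From day 5 to day 7 TAGLN was higher by 1.29 ± 0.18 (SE, 6 arrays), 2.80-fold in the control and 2.13-fold with HPD. These 4 arrays all lie on slide 2. The step did not pass in limma (adjusted p = 0.52), and that from day 3 to day 7, 1.11 ± 0.18, did not either (adjusted p = 0.119). Its HPD effect was -0.23 ± 0.15 (adjusted p = 0.602). With HPD, TAGLN was 1.17-fold lower on day 3, 1.02-fold lower on day 5 and 1.34-fold lower on day 7; lower levels on all 3 days were seen in 10.9% of features. The day 5 difference, -0.03, has the opposite sign with quantile normalization, 0.03, and with normexp background, 0.06. Among its arrays, HPD day 5, control day 5 and HPD day 3 follow each other by less than the residual spread of 0.18.

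The second TAGLN probe, which matches positions 499 to 558 and crosses another intron at chr1:99217543-99217900, gave the same picture. It read 0.77 and 0.71 on day 3, 0.85 and 0.59 on day 5 and 2.43 and 1.79 on day 7, for control and HPD in turn. HPD was lower by 0.64 on day 7 on this probe and by 0.42 on the brightest. The profiles most like TAGLN belonged to COPG1, a coatomer subunit, at 0.166, OSR1, a transcription factor of connective tissue, at 0.167, SCUBE2 at 0.191, KEAP1 at 0.210 and PHLDB2 at 0.212.

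POSTN covered the widest range of the 4 genes, 4.61 log2 units between its lowest and highest array. Its level was 2.49 in the control and 3.28 with HPD on day 3. It was 5.14 in the control and 5.39 with HPD on day 5, and 7.10 in the control and 5.90 with HPD on day 7. Both day 7 arrays lay above all 4 earlier ones, an order that 11.7% of all features showed. In processed intensity the control went from 2640 on day 3 to 42387 on day 7.

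The control step of POSTN from day 3 to day 7 was 24.4-fold and the HPD step 6.15-fold. Of all features, 99.98% had a smaller control difference over that interval. At least 2-fold higher levels on day 7 than on day 3 were seen for 3 of the 4 members, ACTA2, TAGLN and POSTN, in the control, where 6.66% of features reached that, and for the same 3 with HPD, where 4.46% did. From day 5 to day 7, within slide 2, they were seen for 3 of 4 in the control, against 2.96% of features, and with HPD for 1 of 4, TAGLN, against 3.18%. From day 3 to day 5 they were seen for 1 of 4 in the control, POSTN, against 4.77%, and with HPD for 2 of 4, ACTA2 and POSTN, against 3.47%. Steps that share an array, as those into and out of day 5 do, are not independent of each other.

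Averaged over treatments, POSTN was higher by 2.38 ± 0.51 on day 5 than on day 3 (SE, 6 arrays; limma, adjusted p = 0.212) and by 3.62 ± 0.51 on day 7 than on day 3 (adjusted p = 0.117). In a limma fit without a treatment term the latter passed, with an adjusted p of 0.0292. In that fit 382 of 20215 features passed for day 7 against day 3, where 1 did with the term. Only control day 5 and HPD day 5 lie closer to each other in the order of levels than the residual spread of 0.51. In the fit of all 6 arrays, 0 of the 4 members passed for day 7 against day 3, where 0.00495% of features did, and 3 of the 4, ACTA2, TAGLN and POSTN, were higher with an unadjusted p below 0.05, as 10.8% of features were. For day 5 against day 3 it was 0 of 4 against 0.00495% of features, with POSTN alone higher below 0.05 before adjustment, as 6.28% of features were. For day 7 against day 5 it was 0 of 4 against 0% of features, with TAGLN alone higher below 0.05 before adjustment, as 4.78% of features were.

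HPD against control also turned sign for POSTN. With HPD it was 1.73-fold higher on day 3, 1.19-fold higher on day 5 and 2.29-fold lower on day 7. The mean HPD effect, -0.05 ± 0.42 (SE, 6 arrays; limma, adjusted p = 0.969), averages over these opposite values; it was 0.039 with quantile normalization and 0.52 without day 7. On day 7 ACTA2 and POSTN lay at the low end of all features: 0.415% had a lower HPD minus control difference than ACTA2 and 0.501% than POSTN.

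**Figure D3:**
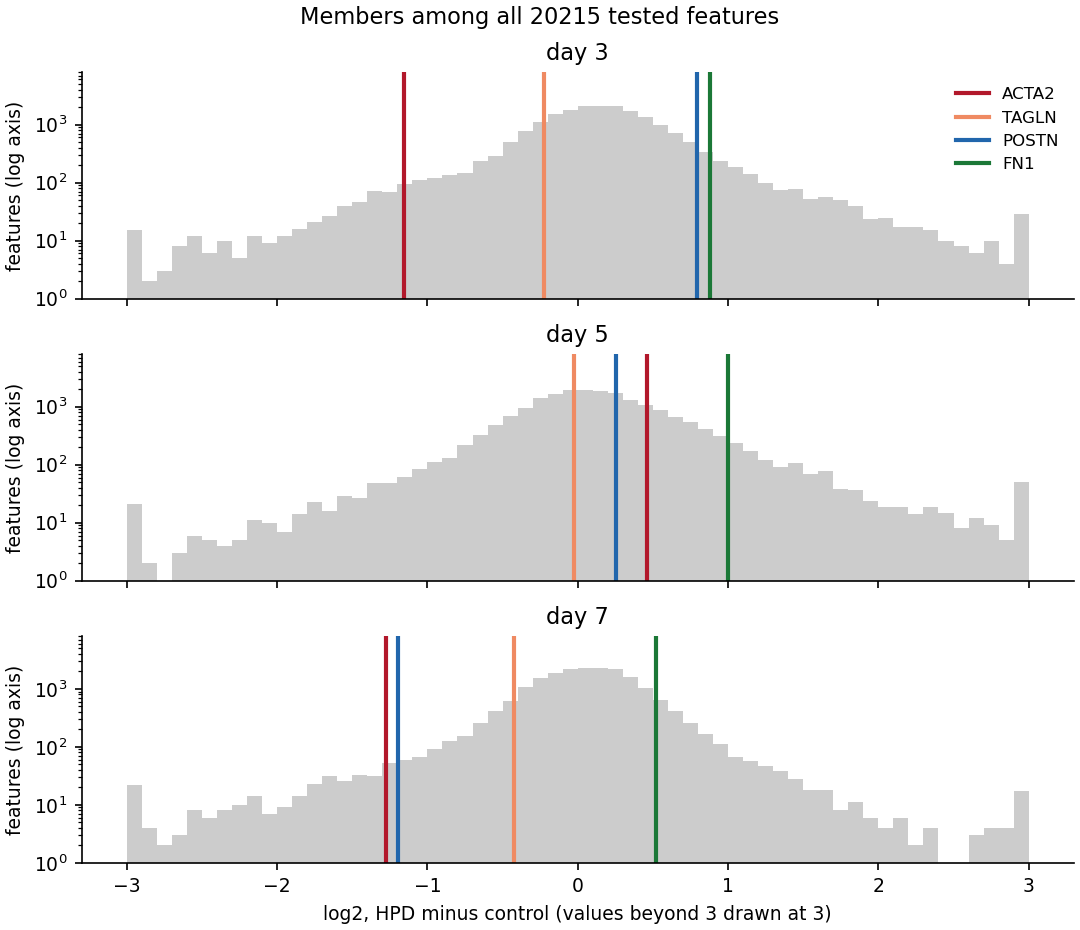
Histograms of HPD minus control (log2, horizontal axis) over all 20215 tested features on day 3, day 5 and day 7, with the number of features on a log axis and differences beyond 3 drawn at 3. Coloured lines mark the members; ACTA2 is at -1.16, 0.46 and -1.28 and POSTN at 0.79, 0.25 and -1.20, while FN1 is at 0.88, 1.0 and 0.52.

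All 4 POSTN probes showed these signs. Their HPD minus control differences were 0.75 to 0.99 on day 3, 0.25 to 0.80 on day 5 and -1.21 to -0.97 on day 7. Their day 7 minus day 3 estimates were 3.06 to 3.75. The other probes begin at positions 1069, 1070 and 2351 of the transcript; those at 1069 and 1070 are the same stretch shifted by 1 base, and each also shares 59 bases with a probe that carries no gene name here.

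**Figure D4:**
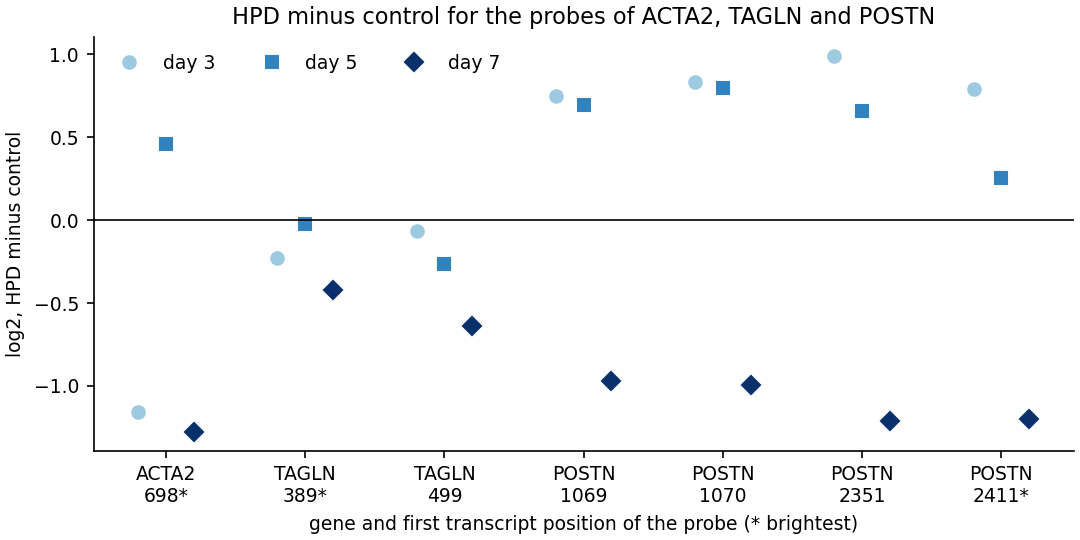
HPD minus control (log2, vertical axis) on day 3 (circles), day 5 (squares) and day 7 (diamonds) for the 7 probes of ACTA2, TAGLN and POSTN, each named by its gene and first transcript position, with the brightest probe starred. There is 1 array per group and no error bar; the day 7 diamonds of all 7 probes lie below 0, and the day 3 and day 5 points of the 4 POSTN probes lie above it.

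Fibroblast markers were measured for 7 of 10 genes, all well above background. Like POSTN, all 7 were higher on day 7 than on day 3, with a median of 1.35 against -0.01 over all features; 0 of 7 passed the adjusted threshold. On day 7 their median HPD minus control difference was -0.73 against 0.06 over all features, with 5 of 7 lower, and their summed level was 2739 times the 75th percentile in the control and 2227 with HPD. On day 3 those sums were 783 in the control and 781 with HPD. On day 5 they were 1910 in the control and 1265 with HPD, with a median difference of -0.55, whereas POSTN was higher with HPD on that day. COL3A1 and COL1A2, brighter than the other fibroblast markers on each array, weigh most in these sums. Osteoblast and periosteum markers, for 5 of 8 genes, summed to 160 in the control and 46.2 with HPD on day 5, and to 88.2 and 181 on day 7. IBSP and COL1A1, brighter than the others of that list on each array, weigh most there. The part of these cells in the POSTN levels was not tested.

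The profiles most like POSTN belonged to EDIL3, a secreted integrin ligand, at 0.548, to LIX1 at 0.574, to TNMD, which encodes the tendon protein tenomodulin, at 0.592, to GLT8D2 at 0.618 and to LUM, which encodes the collagen-binding proteoglycan lumican, at 0.624. Among the members, ACTA2 stood 0.737 from TAGLN and 0.808 from POSTN, while FN1 stood 0.759 from TAGLN and 1.55 from POSTN. This distance also depends on how widely each gene ranges, 1.06 log2 units for FN1 and 1.51 for TAGLN. The Pearson correlation over the 6 arrays was 0.77 for ACTA2 with TAGLN and 0.87 for ACTA2 with POSTN. For FN1 it was -0.12 with TAGLN and 0.15 with POSTN.

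FN1 on its brightest probe was higher with HPD on each day and differed little between days. Its level was 6.76 in the control and 7.64 with HPD on day 3, 6.82 and 7.82 on day 5, and 7.04 and 7.56 on day 7. That order within each day did not hold on day 7 for every FN1 probe, as given below. The differences were 1.84-fold on day 3, 2.0-fold on day 5 and 1.43-fold on day 7, and 26.4% of features were higher with HPD on all 3 days.

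The HPD effect on FN1 was 0.80 ± 0.16 (SE, 6 arrays), higher on 3 of 3 days, and did not pass in limma (adjusted p = 0.557). In that comparison 0 of the 4 members passed, against 0% of the 20215 features; below an unadjusted p of 0.05 stood 1 of 4, FN1, which was higher, as 7.11% of features were. Of all features, 1438 were higher and 285 lower with HPD at that level. With scaling to the array median in place of the 75th percentile that split was 632 higher and 1065 lower, and the median HPD effect over all features went from 0.09 to -0.04, while FN1 kept its sign on all 3 days. From day 3 to day 7 the FN1 estimate was 0.10 ± 0.20 (limma, adjusted p = 0.794), and it was negative, -0.022, with quantile normalization. In the order of levels, HPD day 7, HPD day 3 and HPD day 5 follow each other by less than the residual spread of 0.20, as do control day 3 and control day 5.

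The 11 FN1 probes did not all follow the brightest one, and the difference lay between stretches of sequence that overlap. The following probes are shown because they tile 1 short region near the end of ENSOCUT00000010116; capitals mark the bases that a probe shares with the brightest, which is first and has none marked.
FN1 6926: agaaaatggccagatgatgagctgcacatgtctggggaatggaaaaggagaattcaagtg
FN1 6936: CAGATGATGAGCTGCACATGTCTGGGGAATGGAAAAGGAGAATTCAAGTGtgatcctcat
FN1 6956a: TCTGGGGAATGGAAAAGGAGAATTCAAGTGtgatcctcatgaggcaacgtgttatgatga
FN1 6956b: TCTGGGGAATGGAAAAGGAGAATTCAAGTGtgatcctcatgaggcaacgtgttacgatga
FN1 6976: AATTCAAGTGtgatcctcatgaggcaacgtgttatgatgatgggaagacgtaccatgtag
FN1 7001: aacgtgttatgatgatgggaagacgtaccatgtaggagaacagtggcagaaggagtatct
Each is named by its first transcript position, and the 2 that begin at 6956 are told apart as a and b. The brightest lies in a single exon at chr7:156707664-156707723 on the minus strand of oryCun2. The probes at 6936, 6956 and 6976 cross the same intron of 511 bases, with 50, 30 and 10 bases shared with the brightest, and the probe at 7001 lies wholly in the next exon at chr7:156707078-156707137. The remaining 5 probes begin between positions 4450 and 4462, more than a kilobase upstream in the transcript, and 1 of them is shown as their example.
FN1 4462: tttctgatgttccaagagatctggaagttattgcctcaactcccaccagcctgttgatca

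On days 3 and 5 the 11 FN1 probes pointed the same way. HPD was higher than control by 0.77 to 1.07 on day 3 and by 0.74 to 1.15 on day 5 over all 11. On day 7 they formed 3 sets, a division made after the values were seen and given no test. The probes at 6926 and 6936 were higher with HPD by 0.52 and 0.49. The 4 probes from 6956 to 7001 were lower with HPD by 0.48 to 0.56. The 5 upstream probes lay between -0.18 and 0.04. With all FN1 probes averaged, the day 7 difference was -0.13.

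**Figure D5:**
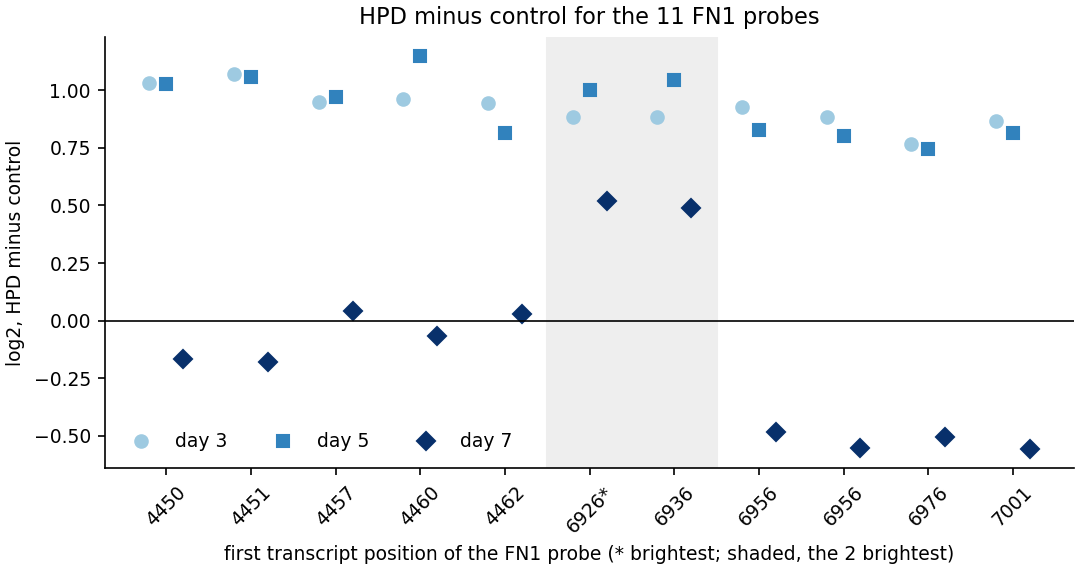
HPD minus control (log2, vertical axis) for the 11 FN1 probes, ordered by first transcript position, on day 3 (circles), day 5 (squares) and day 7 (diamonds), 1 array per group and no error bar. The shaded probes, at 6926 and 6936, stand at 0.52 and 0.49 on day 7, the 4 to their right between -0.56 and -0.48 and the 5 to their left between -0.18 and 0.04, whereas all 11 lie above 0.74 on day 3 and at or above it on day 5.

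The sets also differed over time. With HPD, the level on day 7 minus that on day 3 was -0.08 on both probes of the brightest set, between -1.36 and -1.16 on the 4 probes from 6956 to 7001, and between -1.66 and -1.25 on the 5 upstream probes. In the control it was 0.28 to 0.31, -0.04 to 0.28 and -0.46 to -0.33 in turn. In processed intensity, the probe at 6936 read 80429 on day 3 and 54390 on day 7 with HPD, and the probe at 6956a, which begins 20 bases further on, read 15162 and 4222. The brightest reading of a member probe, 91916, lay below the highest of each array, which was 459580 or more.

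Probes that differ by 1 base gave the same pattern. The probes 6956a and 6956b differ by T55C, counted from 1 at the first base of the probe as printed, with the base of 6956a given first. Their log2 levels differed by 0.07 to 0.14 over the 6 arrays. Their day 7 HPD minus control differences were -0.48 and -0.55. The signs of the 2 brightest probes and of the 4 probes from 6956 to 7001 on day 7 were the same under each of 4 scalings, with ranges of 0.39 to 0.42 and -0.65 to -0.58 under median scaling and values of 0.62 and -0.42 to -0.32 with normexp background. The longest exact run that an FN1 probe shares with a probe of another gene on the array is 16 bases, for the probe at 7001.

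With every probe tested on its own, FN1 gave HPD effects of 0.80 and 0.81 on the 2 brightest probes, of 0.34 to 0.42 on the 4 that follow and of 0.60 to 0.68 on the 5 upstream probes. None of the 18 member probes passed in limma over 36877 probes (lowest adjusted p = 0.109, for day 7 minus day 3 of TAGLN and POSTN), against 0.0108% of probes for day 7 minus day 3, 0.0136% for day 5 minus day 3 and 0% for the other contrasts. The HPD effect on FN1 was positive on all 11 of its probes.

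Macrophage markers were higher with HPD in the average over days, though not all of them on day 3 or day 7. They were measured for 7 of 9 genes, all well above background. All 7 had a positive HPD effect, as 62.7% of features had, with a median of 0.46 against 0.09 over all features, and 0 of 7 passed. On day 3, C1QA and CSF1R were lower with HPD, at -0.28 and -0.05, and the others higher. On day 7, 4 were higher with HPD and 3 lower. Under median scaling 5 of 7 had a positive HPD effect. Their summed level, as a multiple of the 75th percentile, was 29.9 in the control and 43.9 with HPD on day 3, 17.6 and 34.9 on day 5, and 19.2 and 24.6 on day 7. CD14, the brightest of the 7 on each array, weighs most in these sums. MSR1, the macrophage scavenger receptor, had an HPD effect of 1.02 ± 0.26 (SE, 6 arrays; limma, adjusted p = 0.557) and CSF1R, the receptor for colony-stimulating factor, one of 0.02 ± 0.14. The part of these cells in the FN1 levels was not tested. The profile most like that of the brightest FN1 probe belonged to CD9, which encodes a tetraspanin, at 0.058, ahead of MBD5 at 0.146, MIF, a macrophage cytokine, at 0.149, TNFSF4 at 0.150 and C5H6orf52 at 0.154.

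Other contractile genes shared the time course of ACTA2 and TAGLN in part. Of 23 genes listed, 20 were measured, and 14 were higher and 6 lower on day 7 than on day 3, with a median of 0.27 against -0.01 over all features; 0 passed. With normexp background 12 were higher and 8 lower, with a median of 0.13. The range ran from ACTC1, higher by 2.36 ± 0.44 (SE, 6 arrays; limma, adjusted p = 0.127), to TAGLN2, a transgelin of non-muscle cells, at -0.74 ± 0.25 (adjusted p = 0.217). For HPD against control they were divided evenly, 10 higher and 10 lower, with a median of -0.01, and 8 higher and 12 lower under median scaling. The highest effect was that of LMOD1, leiomodin of smooth muscle, at 0.59 ± 0.24. The lowest was that of ACTG2, enteric smooth muscle actin, at -0.61 ± 0.24, both with an adjusted p of 0.557 in limma. LMOD1 was dim, at -5.01 to -3.64, where the lowest readings well above background were -5.57 to -4.57 by array. ACTG2 was lower with HPD by 0.85 on day 3 and by 0.98 on day 7, as ACTA2 was, and by 0.01 on day 5.

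Of the genes listed for control of actin gene transcription, 4 of 8 were measured, and 0 passed. MYOCD, the myocardin coactivator, was at 0.13 ± 0.18 for day 7 against day 3, and TEAD1 at -0.38 ± 0.30. For HPD, MRTFB, a myocardin-related coactivator, was at 0.30 ± 0.16 and FHL2 at -0.31 ± 0.15. MYOCD was well above background on 4 of 6 arrays, and MRTFB was dim on all of them, at -4.59 to -4.08.

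Integrins and focal adhesion genes, through which cells hold the matrix around them, were measured for 20 of 24. On day 7 against day 3, 12 were higher and 8 lower, with a median of 0.11, and 0 passed; with normexp background 10 were higher and 10 lower, with a median of 0.02. ITGA2, a collagen-binding integrin chain, was highest at 0.81 ± 0.30 and TLN1, which encodes talin, lowest at -0.76 ± 0.18. For HPD, 15 were higher and 5 lower, with a median of 0.11 against 0.09 over all features, and under median scaling 10 were higher and 10 lower. ITGA11 was highest at 0.36 ± 0.23 and PARVA lowest at -0.26 ± 0.24.

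Matricellular proteins and the matrix that binds fibronectin were measured for 16 of 20 genes. On day 7 against day 3, 11 were higher and 5 lower, with a median of 0.26, and 0 passed. TNN, tenascin N of bone and periosteum, was highest at 2.08 ± 0.42 (SE, 6 arrays; limma, adjusted p = 0.138), and TGFBI, a relative of periostin, lowest at -0.98 ± 0.24 (adjusted p = 0.153). TGFBI stood at 2.82 and 3.23 on day 3 and at 2.17 and 1.92 on day 7, for control and HPD in turn, opposite in direction to POSTN. For HPD, the thrombospondin gene THBS1 was at 0.44 ± 0.21 and THBS2 at -0.42 ± 0.27.

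Of the TGF-beta genes that drive the programme, 9 of 12 were tested, with a median of 0.22 for day 7 against day 3, or 0.11 with normexp background, and 0 passing. TGFB1, the ligand, was lowest at -0.70 ± 0.17 (SE, 6 arrays; limma, adjusted p = 0.156) and SKIL, an inhibitor of SMAD signalling, highest at 0.50 ± 0.34. TGFB1 stood at -0.46 and -0.30 on day 3, -1.22 and -0.99 on day 5 and -1.31 and -0.85 on day 7, for control and HPD in turn, so that its level was lower on both later days while ACTA2 and POSTN were higher. For HPD, the receptor gene TGFBR1 was at 0.29 ± 0.19 and SMAD3, well above background on 5 of 6 arrays, at -0.25 ± 0.15. Under an unadjusted p of 0.05, the 69 genes tested in these 5 lists held 1 for HPD and 16 for day 7 against day 3, of which 11 were higher and 5 lower on day 7. These are 1.45% and 23.2% of the listed genes, against 8.52% and 20.9% of all features.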

How the data were processed

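RNA of newly formed tissue was hybridised to 6 single-dye arrays. The authors deposited linear spot intensity readings, made with Agilent Feature Extraction 10.5.1.1 on a rabbit array designed against oryCun2, per the file headers, with background subtraction and spatial detrending; no step between arrays is recorded. Pooling is not given in the sources used here.

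From these, log2 of the processed intensity minus the log2 75th percentile of non-control probes was computed. Outlier spots were dropped, which removed 41 probes, and repeated spots averaged. Names came from the array's columns and RefSeq (mOryCun1.1): 22539 probes had 1 symbol, 71 several and 20993 none. Features well above background on at least 3 arrays were tested with limma 3.58.1 in R 4.3.3 (day plus treatment; 2 residual and 2.47 prior degrees of freedom), with Benjamini-Hochberg adjustment at 0.05 over 20215 features, 9285 of them named. The fit was tested on simulated data. Figures used Python 3.11.15 and matplotlib 3.10.9. Folds within a day have no test; the share of features at least 2-fold apart is over those well above background on both arrays.

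Named genes were the members, the 5 likest profiles for each, and the extremes of 5 pathway lists (87 genes, 69 tested) and 8 marker lists. The members and lists were chosen with earlier results of these data known. Alternatives were other background and normalization, the mean of probes, no filter, fits without a term, and leaving out a day or an array; the fit of every probe was added after seeing the data.

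Beside the marker lists in the results, 6 endothelial genes had a median day 7 minus day 3 estimate of -0.08, 8 skeletal muscle genes one of 0.08 and 4 red cell genes one of 0.02, while the epithelial gene EPCAM was at -1.24.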

Additional observations from a re-analysis of the deposited data

Results flagged for a closer look

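Opposite signs of HPD minus control on different days drew attention to ACTA2, which was at -1.16 on day 3, 0.46 on day 5 and -1.28 on day 7. POSTN was at 0.79 on day 3 and 0.25 on day 5 but at -1.20 on day 7. Between day 5 and day 7, FN1 was higher by 0.23 in the control and lower with HPD, at -0.26. With 1 array per group, none of these differences between days or treatments was tested.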

How the results depend on the processing

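With 1 array per group, the array number limits the precision, and a gene that passes no threshold here is not shown to be unaffected. The count of members that passed over time was 1 with no treatment term (POSTN), and that of pathway genes was 0 to 1 on leaving out an array, the 1 being MYH11 without the HPD array of day 3. That call rests on the control array of day 3, where MYH11 read -7.84. This is below -5.57, the lowest reading well above background on that array. Of the 12 HPD minus control differences of members within a day, 4 were at least 2-fold, against 5 with quantile normalization, 3 with median scaling and 3 with the mean of probes. Normexp background gave 4 as well, with FN1 on day 3 in place of ACTA2 on day 3. Over all features, day 7 against day 3 had 1 call, 382 with no treatment term and 241 without the HPD array of day 3.

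Among the fitted effects, signs turned only for FN1 over time and for the HPD effect on POSTN; the cause was not tested. With normexp background, quantile normalization and the mean of probes in turn, FN1 was at -0.23, -0.21 and -0.45 for day 5 minus day 3 and at -0.046, -0.022 and -0.62 for day 7 minus day 3; for day 7 minus day 5 the first 2 gave 0.18 and 0.18. The HPD effect on POSTN was 0.020, 0.039 and 0.12 in turn, and 0.52 without day 7. On leaving out an array or a day, the FN1 steps ran from -0.035 to 0.27, from -0.11 to 0.31 and from -0.23 to 0.20, and the POSTN effect from -0.47 to 0.52. Averaging its probes gave FN1 an HPD minus control difference of -0.13 on day 7. Other single-gene effects kept their sign but not their size when an array or a day was left out. ACTA2 ran from -1.22 to -0.35 for HPD, from 0.39 to 2.07 for day 5 minus day 3 and from 0.26 to 1.94 for day 7 minus day 5. POSTN ran from 1.75 to 3.01 and from 0.38 to 2.10 for the same steps, and TAGLN from -0.33 to -0.13 for HPD and from -0.33 to -0.03 for day 5 minus day 3. Day is the block in the fit for HPD; without it 0 members passed as well, with adjusted p-values in limma from 0.874 to 0.998.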
